A study of Mus musculus with 28 samples.

Results

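Large intestine of p63 knockout (KO) mouse embryos at embryonic day 18 (E18) was compared with wild-type (WT) large intestine of the same day. The arrays were chosen by their titles, 2 for p63 KO large intestine E18 and 2 for WT large intestine E18, and make up 4 of the 28 arrays of the series. The labels name Balb/c mice and whole-tissue RNA. The labels say nothing of the knockout allele, the dissection borders or the number of animals behind an array, so p-values measure the spread between arrays, which may be technical. The other arrays, also 2 per genotype, were from small intestine, distal stomach and proximal stomach at E18 and from bladder at E15, E18 and E19. Every value below is a deposited log2 signal of the Affymetrix 3′ expression array for mouse, on which a difference of 1 is a doubling, and every change is KO minus WT on that scale.

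The p63 protein, encoded by Trp63, is a transcription factor of the p53 family that is needed to form the basal layer of stratified epithelia such as epidermis, oesophagus and forestomach. Basal cells of such epithelia carry keratins 5 and 14 and desmosomal cadherins, and on differentiation they make the proteins of the cornified envelope: loricrin, small proline-rich proteins, late cornified envelope proteins and S100-fused proteins, many encoded side by side in the epidermal differentiation complex. The large intestine is instead lined by a simple columnar epithelium of absorptive and goblet cells specified by Cdx factors, and meets stratified epithelium only at the anal canal.

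The genes that rose in KO large intestine were cornification genes, and 6 of the 8 lie on mouse chromosome 3, as do 711 of the 13613 genes tested. Their promoters are printed because these genes moved together. For each of the 8, the 250 bases before the RefSeq transcription start (GRCm38.p6) were searched on both strands for TGANTCA, the letters of an AP-1 site, for TATAAA, and for CATGNNNNNNCATG, a pair of cores of a p53-family site; the motifs did not overlap one another in these windows. TGANTCA was in 5 of the 8 windows, against 6.75% of all 32841 windows, and TATAAA was in 6 of the 8, against 12.37%. CATGNNNNNNCATG was in 0 of the 8, against 0.49%. The windows of Lce3f and Asprv1 held none of these motifs. The motifs were chosen with these promoters in view, and the Sprr genes are related copies, so these shares are no test. The window of Sprr1b, not printed, held both of the first motifs, with TGAATCA beginning 111 bases before the start. The 4 sequences below also hold both, in capitals, 5′ to 3′ and ending at the base before the start. They are the windows of Sprr2d (chr3:92338890-92339139, plus strand), Sprr2h (chr3:92385435-92385684, plus strand), Lor (chr3:92083143-92083392, minus strand) and Krtdap (chr7:30787655-30787904, plus strand).
Sprr2d: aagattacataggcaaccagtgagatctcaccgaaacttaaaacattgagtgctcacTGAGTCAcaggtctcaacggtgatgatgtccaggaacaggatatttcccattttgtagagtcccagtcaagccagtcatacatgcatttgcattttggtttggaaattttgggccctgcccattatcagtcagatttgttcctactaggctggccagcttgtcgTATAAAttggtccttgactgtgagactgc
Sprr2h: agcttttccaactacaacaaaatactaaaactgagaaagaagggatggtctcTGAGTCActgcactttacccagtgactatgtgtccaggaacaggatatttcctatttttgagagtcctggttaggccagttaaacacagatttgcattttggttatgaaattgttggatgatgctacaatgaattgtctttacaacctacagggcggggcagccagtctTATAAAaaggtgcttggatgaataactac
Lor: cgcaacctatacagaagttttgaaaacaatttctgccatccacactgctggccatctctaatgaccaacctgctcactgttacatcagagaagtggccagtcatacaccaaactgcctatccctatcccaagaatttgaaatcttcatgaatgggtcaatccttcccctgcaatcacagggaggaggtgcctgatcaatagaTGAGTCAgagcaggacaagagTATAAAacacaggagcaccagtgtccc
Krtdap: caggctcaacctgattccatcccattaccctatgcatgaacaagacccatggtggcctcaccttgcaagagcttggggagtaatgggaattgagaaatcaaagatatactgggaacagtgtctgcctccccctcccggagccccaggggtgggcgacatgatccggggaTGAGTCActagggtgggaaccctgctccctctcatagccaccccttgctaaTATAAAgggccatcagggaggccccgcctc
The TGAGTCA of Sprr2d began 193 bases before the start and that of Sprr2h 198 bases before it, while those of Krtdap and Lor began 81 and 48 bases before it. A match of letters is a description and not a bound site.

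The tissue label was borne out by most of its markers. Cdx2, the hindgut homeobox factor, read 13.04 and 13.21 in KO arrays and 13.01 and 13.59 in WT arrays. Muc2, the main mucin of goblet cells, read 12.78 and 11.15 in KO arrays and 13.74 and 12.003 in WT arrays, and Hoxd13, a posterior Hox gene, 12.04 and 10.80 in KO arrays and 11.89 and 10.41 in WT arrays. Slc26a3, the chloride-bicarbonate exchanger of adult colon, was low on all 4 arrays, at 4.21 and 4.58 in KO and 4.64 and 4.93 in WT, where the median probe set of an array read 7.80 to 7.86. Sult1c2, a sulphotransferase of the same marker list, was also under that median, at 5.36 and 4.78 in KO arrays and 5.45 and 4.91 in WT arrays. So was Slc9a3 of that list, at 5.08 and 5.28 in KO arrays and 6.09 and 6.90 in WT arrays. Over the 16 members tested, the median signal was 11.05 and 10.98 in KO arrays and 11.64 and 11.06 in WT arrays. Over genes, the SD of the difference between the 2 arrays of a group was 0.403 for KO and 0.411 for WT large intestine, against 0.236 to 0.398 in the other 12 groups. The most alike of the 4 arrays were of opposite genotype, KO replicate 1 and WT replicate 2, with an SD of 0.30.

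The 2 arrays of each genotype also differed in sex-linked transcripts. Eif2s3y, a Y-linked gene, read 11.89 in KO replicate 1 and 4.19 in KO replicate 2, against 11.85 in WT replicate 1 and 4.35 in WT replicate 2. Xist, transcribed from the inactive X chromosome, read 6.51 and 6.29 in KO arrays, against 6.28 and 13.43 in WT arrays, so KO replicate 2 was low for both. The same held for the arrays of this genotype and number in all 4 gut tissues, where Xist read 6.05 to 6.29 and Eif2s3y 4.06 to 4.19 in KO replicate 2. The part of these differences in the results below was not tested.

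The targeted gene was at a low level in both genotypes. By its brightest probe set Trp63 read 5.99 and 7.51 in KO arrays and 6.44 and 6.36 in WT arrays, all under the array median, where WT proximal stomach averaged 13.24. The groups overlapped, and the change was 0.35 (SE 0.38; limma, adjusted p = 0.999). Its 3 further probe sets gave changes of 0.11, -0.06 and 0.50, none called. Since the labels do not say which part of the gene is deleted, these values do not check the genotype.

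Among the 13613 genes tested, 12 passed an adjusted p of 0.05 (limma, all 28 arrays), or 0.0882%: 8 were higher in KO (0.0588%) and 4 lower (0.0294%). At an unadjusted p under 0.05 there were 665 genes (4.89%), of which 135 were higher (0.992%) and 530 lower (3.89%). All 12 changed by more than 2-fold, and in each of them both KO arrays lay on the same side of both WT arrays, as they did in 3681 of the 13613 genes (27%). The 8 genes that rose did so by 2.29 to 4.53 on the log2 scale. All 8 were brighter in KO replicate 2 than in KO replicate 1. In all 8 both WT arrays lay under the array median, from percentile 2.2 (Hrnr) to 46.4 (Lor) of the array's probe sets. KO signal was dim for some as well. Sprr2h was under the median on all 4 large intestine arrays, and Asprv1, Hrnr, Sprr1b and Sprr2d were under it in KO replicate 1. Among the genes that fell, Iyd was under it on all 4. No detection calls were used here, so the changes are differences of signal, which can understate a change where WT signal is dim. With only the 4 large intestine arrays in the fit no gene was called, and the smallest p of an exact permutation test in this design is 0.3333; the calls therefore rest on the spread estimated over all 14 groups. In whole-tissue RNA, a change in the number of cells of a type and a change in RNA per cell cannot be told apart.

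**Figure D1:**
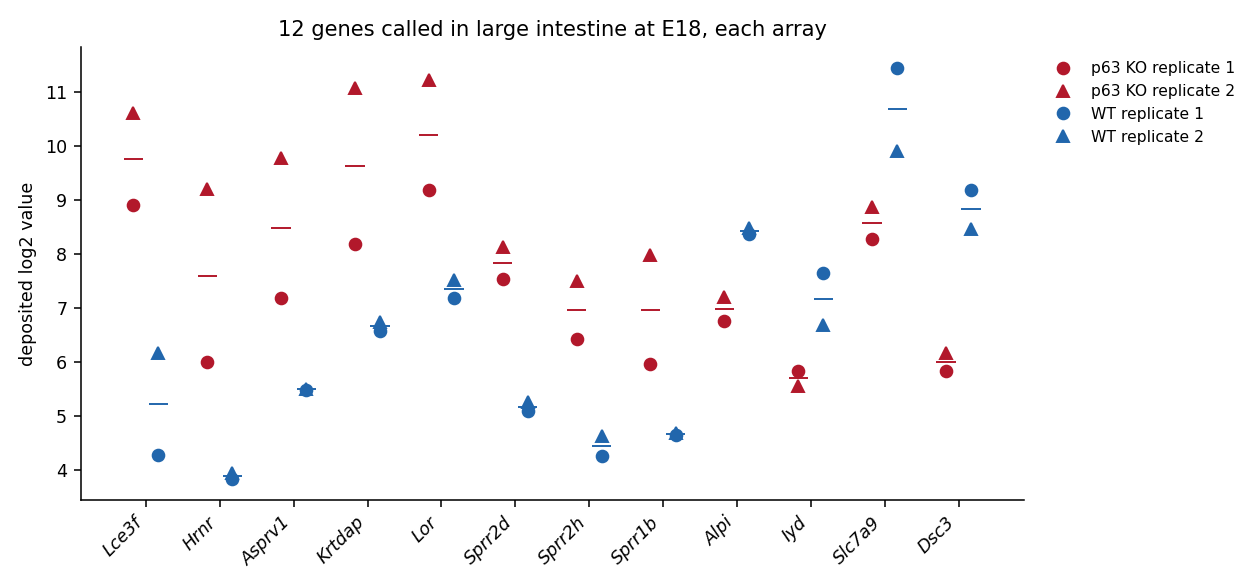
Deposited log2 value (vertical axis) of the 12 called genes on each large intestine array at E18, KO to the left of WT for each gene; circles are replicate 1, triangles replicate 2, and short bars the mean of 2 arrays. The groups do not overlap for any of the 12, and the 8 genes that rose are brighter in KO replicate 2 than in KO replicate 1.

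The genes that rose encode proteins of the outer layers of stratified squamous epithelium, foremost precursors of the cornified envelope. Lce3f, a late cornified envelope protein gene, read 8.92 and 10.61 in KO arrays, against 4.28 and 6.17 in WT arrays. Its change of 4.53 (SE 0.57; limma, adjusted p = 5.1e-04) is a difference from WT signal that was dim on at least 1 array, at percentile 6.9 in WT replicate 1. Lor, which encodes loricrin, the main protein of the epidermal envelope, read 9.20 and 11.23 in KO arrays and 7.20 and 7.53 in WT arrays. It rose by 2.85 (SE 0.52; limma, adjusted p = 0.0228), and its other 2 probe sets changed by 2.22 and 2.39. Hrnr encodes hornerin, an S100-fused protein of the granular layer. It read 5.997 and 9.21 in KO arrays, against 3.84 and 3.95 in WT arrays. The 2 KO arrays thus differed by more than 3 log2 units between themselves, and Hrnr rose by 3.71 (SE 0.56; limma, adjusted p = 0.00553). That SE was pooled over all 14 groups and understates the spread of Hrnr in KO large intestine, where the SD was 2.27.

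Small proline-rich proteins, which cross-link the envelope, gave 3 of the 8. Sprr2d read 7.55 and 8.13 in KO arrays, against 5.09 and 5.27 in WT arrays, with little spread between replicates. It rose by 2.66 (SE 0.25, the smallest of the 8; limma, adjusted p = 7.7e-06). Sprr2h read 6.42 and 7.51 in KO arrays and 4.27 and 4.64 in WT arrays, a rise of 2.51 (SE 0.44; limma, adjusted p = 0.0176). Sprr1b read 5.96 and 7.98 in KO arrays and 4.66 and 4.70 in WT arrays, a rise of 2.29 (SE 0.40; limma, adjusted p = 0.0176). The Sprr2 genes are near-identical copies and the probe sets of Sprr2h and Lor are of the type whose probes can match several transcripts, so which family member gave the signal is uncertain. Sprr1a read 8.54 and 8.63 in KO arrays and 7.30 and 7.89 in WT arrays, a change of 0.99 that missed the threshold (limma, adjusted p = 0.0808).

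The remaining genes that rose act in the upper epidermal layers. Krtdap, a secreted peptide made by differentiating keratinocytes, read 8.19 and 11.07 in KO arrays, against 6.59 and 6.75 in WT arrays, and rose by 2.97 (SE 0.49; limma, adjusted p = 0.0135). Asprv1, the protease that processes profilaggrin, read 7.19 and 9.79 in KO arrays, against 5.50 and 5.50 in WT arrays, and rose by 2.99 (SE 0.48; limma, adjusted p = 0.0114). Both KO arrays were above both WT arrays, KO replicate 2 by far the more. Calm4, a calmodulin-like protein of skin, read 6.25 and 8.98 in KO arrays and 5.05 and 4.81 in WT arrays, and its change of 2.68 just missed the threshold (limma, adjusted p = 0.0518).

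These calls depended on single arrays to different degrees. Sprr2d and Lce3f stayed called whichever of the 4 large intestine arrays was left out, with changes of 2.37 to 2.94 and 3.59 to 5.48. Without WT replicate 1 the other 6 lost the call, and without KO replicate 2 so did Lor, Sprr2h and Sprr1b. Without KO replicate 2 the changes of Lor and Sprr2h were 1.83 and 1.97. Those of Hrnr and Krtdap were then 2.10 and 1.53, and those of Asprv1 and Sprr1b 1.70 and 1.28. In KO large intestine the SD was 2.27 for Hrnr, 2.04 for Krtdap, 1.84 for Asprv1 and 1.43 for Sprr1b. The SE of the fit, pooled over all 14 groups, was 0.40 to 0.56 for these genes and understates that spread. With only the 12 arrays of distal stomach, small intestine and large intestine in the fit, Sprr2d was the gene of the 8 that stayed called. Lor also lost the call with array weights, with no trend of the variance, and without the bladder E19 arrays, a setting chosen after seeing the data.

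Over the whole list of 33 squamous and cornified envelope genes tested, 6 were called higher and 0 lower, beside 0.0588% and 0.0294% of all genes. This list, like the other lists, was chosen with earlier results of these data known, so its shares beside all genes are no test. At an unadjusted p under 0.05, 14 were higher and 1 lower, beside 0.992% and 3.89% of all genes. Both KO arrays were above both WT arrays for 17 of the 33 and below for 5, where 11.8% and 15.2% of all genes did so. A change above 0 was found in 24 of the 33, beside 43.7% of all genes. The median change was 0.50, against -0.02 over all genes, and it was 0.10 without KO replicate 2. The median was 0.37 without WT replicate 1, 0.72 without KO replicate 1 and 0.52 without WT replicate 2.

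Other members of the list are named here after their values were seen. Lce1a1, a late cornified envelope gene, read 5.08 and 6.13 in KO arrays and 3.89 and 4.01 in WT arrays, a change of 1.66 that missed the threshold (limma, adjusted p = 0.0966). Flg, the profilaggrin gene and a neighbour of Hrnr, read 3.78 and 3.79 in KO arrays and 4.03 and 3.87 in WT arrays. Krt1, a keratin of the epidermal spinous layer, read 5.65 and 5.76 in KO arrays and 5.93 and 5.68 in WT arrays, and its partner Krt10 9.47 and 9.30 in KO arrays and 9.20 and 9.26 in WT arrays. Flg and Krt1 were under the array median on all 4 arrays, where no change cannot be told from no signal. Ivl, which encodes involucrin, read 7.23 and 7.39 in KO arrays and 6.82 and 6.62 in WT arrays, a change of 0.59 that was not called (limma, adjusted p = 0.999), although the groups did not overlap. Tgm3, an envelope cross-linking enzyme, read 6.54 and 6.24 in KO arrays, against 8.87 and 6.27 in WT arrays, so WT replicate 1 stood apart; its change of -1.18, the lowest of the 33, was not called (limma, adjusted p = 0.97). Tgm1, the keratinocyte transglutaminase, had a change of 0.07.

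**Figure D2:**
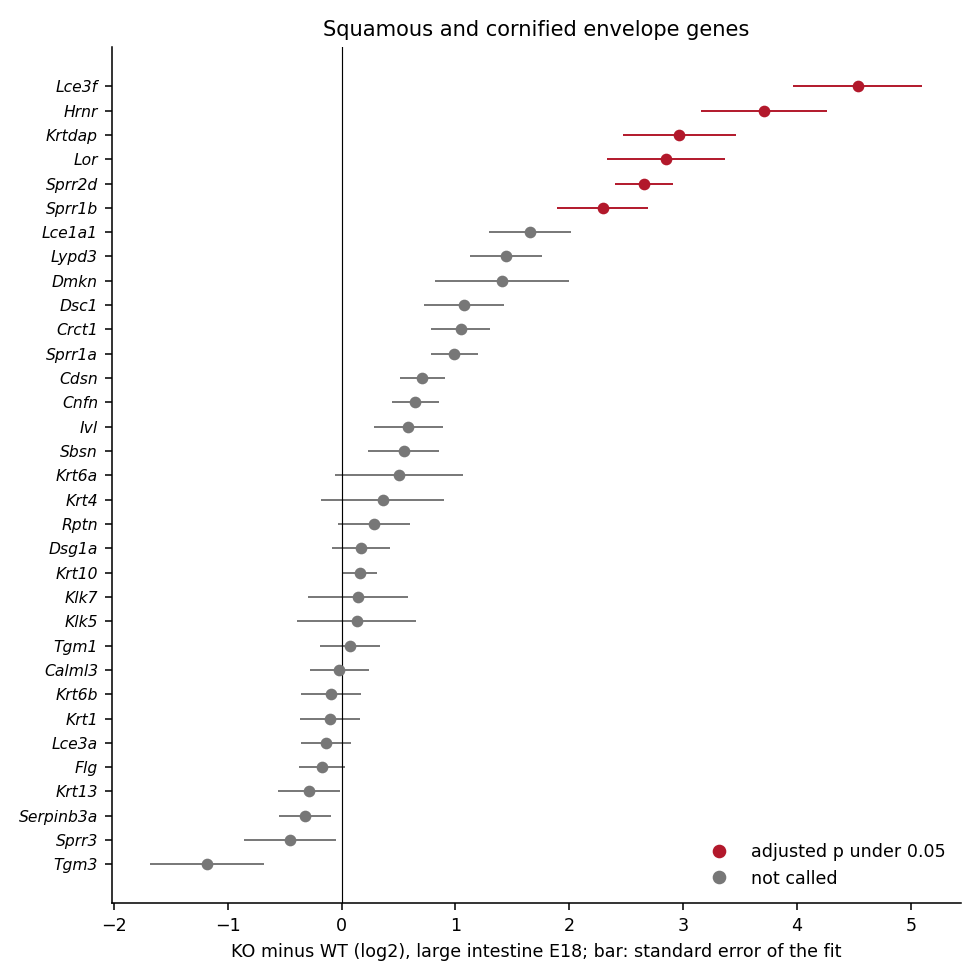
KO minus WT change (horizontal axis, log2) of the 33 squamous and cornified envelope genes tested in large intestine at E18, with the standard error of the fit as a bar; red marks an adjusted p under 0.05. The 6 called members have changes from 2.29 to 4.53, and 9 of the 33 members lie below 0.

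The genes that rose on chromosome 3 lie in the epidermal differentiation complex. Between S100a1 and S100a10 on chromosome 3, a stretch picked after the values were seen, 41 of 70 protein-coding genes of the RefSeq annotation were tested. Of the 41, 6 were called higher and 0 lower, beside 0.0588% and 0.0294% of all genes. Both KO arrays were above both WT arrays for 18 and below for 7, beside 11.8% and 15.2% of all genes, and the median change was 0.11. Near neighbours differed: Lce3f rose by 4.53, while Lce3a changed by -0.14 and Lce3b by -0.08. Lce3c read 8.54 and 9.29 in KO arrays and 8.38 and 8.35 in WT arrays, a change of 0.55 that was not called (limma, adjusted p = 0.873). Likewise Sprr2d rose by 2.66, and Sprr2i changed by 0.11 and Sprr2f by -0.17. Lce3a and Lce3b read 4.82 to 5.67 over the large intestine arrays, and Sprr2i and Sprr2f 3.68 to 4.07. All these values are under the array median, where no change cannot be told from no signal. Crct1, a cysteine-rich gene of the same stretch, read 7.75 and 8.31 in KO arrays and 6.79 and 7.18 in WT arrays, a change of 1.04 that missed the threshold (limma, adjusted p = 0.18).

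Basal-layer genes as a list did not rise with the cornification genes, and their members moved both ways. Of 23 tested, 0 were called higher and 1 lower, beside 0.0588% and 0.0294% of all genes, and the median change was -0.06. At an unadjusted p under 0.05, 1 was higher and 2 lower, beside 0.992% and 3.89% of all genes. Both KO arrays were above both WT arrays for 4 and below for 4, beside 11.8% and 15.2%. Changes ran from -2.82 to 0.82, with 9 above 0 and 14 below. The median ran from -0.19 to 0.10 when 1 large intestine array was left out. The summed linear signal of the 23 was 40561 and 35213 in KO arrays, against 42269 and 37560 in WT arrays. Krt5 read 6.61 and 6.73 in KO arrays and 7.08 and 6.99 in WT arrays. Krt14, its partner keratin, read 6.55 and 6.54 in KO arrays and 8.10 and 7.48 in WT arrays, a change of -1.24 that was not called (limma, adjusted p = 0.80).

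Dsc3, which encodes desmocollin 3, the desmosomal cadherin of basal and lower layers, was the basal-layer gene called lower. It read 5.84 and 6.17 in KO arrays, against 9.18 and 8.48 in WT arrays. Both KO arrays were under the array median and both WT arrays above it. Dsc3 fell by 2.82 (SE 0.26; limma, adjusted p = 7.7e-06), a 7.08-fold lower signal. Its other probe set read 5.34 and 5.58 in KO arrays and 5.38 and 5.48 in WT arrays and was left out by the filter on low values; it averaged 5.44 in KO and 7.35 in WT proximal stomach, where the first averaged 7.40 in KO and 12.91 in WT. Dsc3 stayed called whichever of the 4 large intestine arrays was left out, with changes of -3.18 to -2.47, and with only the 12 arrays of distal stomach, small intestine and large intestine.

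The other genes that fell were Slc7a9, Alpi and Iyd, of which Alpi is in the brush border list and in the small intestine list. Slc7a9, the light subunit of the apical transporter of cystine and dibasic amino acids, read 8.28 and 8.87 in KO arrays, against 11.45 and 9.91 in WT arrays. It fell by 2.11 (SE 0.35; limma, adjusted p = 0.0135). Alpi, intestinal alkaline phosphatase of the brush border, read 6.77 and 7.21 in KO arrays, against 8.38 and 8.48 in WT arrays, and fell by 1.44 (SE 0.26; limma, adjusted p = 0.0211). Iyd, the deiodinase that recovers iodide from iodotyrosines, read 5.85 and 5.56 in KO arrays, against 7.66 and 6.69 in WT arrays, and fell by 1.48 (SE 0.26; limma, adjusted p = 0.0176). The groups did not overlap in any of the 3. With WT replicate 1 left out, the change was -1.34 for Slc7a9 and -0.99 for Iyd. Without WT replicate 1 all 3 lost the call. Slc7a9 and Alpi lost it without KO replicate 1 and Iyd without KO replicate 2. Alpi and Iyd also lost it with array weights, Alpi with quantile normalization and with the replicate number as a block, and all 3 with only the 12 arrays named above.

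The 6 genes with the next smallest p among those lower in KO missed the threshold, with adjusted p from 0.065 to 0.0966 (limma). Slc51b, a subunit of the basolateral bile acid exporter, read 7.99 and 8.49 in KO arrays and 9.76 and 9.44 in WT arrays. Slc13a1, a sulphate transporter, read 6.15 and 6.91 in KO arrays and 8.69 and 8.02 in WT arrays. Slc30a2, a zinc transporter, read 5.58 and 5.17 in KO arrays and 7.12 and 6.24 in WT arrays. In each of these both KO arrays lay below both WT arrays. Hsd3b3, a hydroxysteroid dehydrogenase, read 6.70 and 7.69 in KO arrays and 9.22 and 8.46 in WT arrays. Sned1, a matrix glycoprotein, read 7.52 and 7.41 in KO arrays and 8.73 and 9.25 in WT arrays. Naalad2, a membrane peptidase, read 6.46 and 6.52 in KO arrays and 7.35 and 7.83 in WT arrays.

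Of 24 brush border and digestion genes tested, 1 (Alpi) was called lower and 0 higher, beside 0.0294% and 0.0588% of all genes. At an unadjusted p under 0.05, 6 were lower and 0 higher, beside 3.89% and 0.992% of all genes, and the median change was -0.24. A pair of members named after their values were seen are Mep1b, a meprin subunit, and Tmigd1, an epithelial adhesion protein. Mep1b read 7.65 and 7.25 in KO arrays and 10.49 and 8.29 in WT arrays (limma, adjusted p = 0.0966). Tmigd1 read 4.62 and 4.69 in KO arrays and 8.17 and 6.39 in WT arrays (limma, adjusted p = 0.123). WT replicate 1 was the brightest of the 4 arrays for both. Of genes of the microvillus core, Vil1, which encodes villin, had a change of -0.24, the same as the list median. Ezr, which encodes ezrin, had a change of less than 0.01 in size. Of 22 genes of lipid uptake 0 were called and 4 were lower at an unadjusted p under 0.05, beside 3.89% of all genes, with a median change of -0.20. Mttp, which loads lipid onto apolipoprotein B, read 8.70 and 8.83 in KO arrays and 9.51 and 10.08 in WT arrays. Fabp6, the bile acid binding protein, read 8.63 and 7.98 in KO arrays and 11.27 and 9.76 in WT arrays (limma, adjusted p = 0.448).

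Ion and water transport of colonocytes gave 0 called of 21 tested, with 6 lower and 0 higher at an unadjusted p under 0.05, beside 3.89% and 0.992% of all genes, and a median change of -0.40. Aqp8, a water channel of the colon surface, read 6.91 and 6.30 in KO arrays, against 11.39 and 6.998 in WT arrays. Aqp4, another water channel, read 8.33 and 7.55 in KO arrays, against 11.46 and 8.60 in WT arrays. WT replicate 1 carried most of both differences, and neither was called (limma, adjusted p = 0.438 for Aqp8 and 0.35 for Aqp4). Without WT replicate 1 the median of the list was 0.06, and without WT replicate 2 it was -0.91.

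Of 18 goblet cell genes 0 were called, 3 were lower at an unadjusted p under 0.05, beside 3.89% of all genes, and the median change was -0.13. The median was 0.09 without KO replicate 2 and 0.035 without WT replicate 1. It was -0.52 without KO replicate 1 and -0.31 without WT replicate 2. Reg4, a secreted lectin-like protein, read 12.34 and 9.99 in KO arrays and 13.53 and 11.91 in WT arrays, and Zg16, a mucus lectin, 13.28 and 12.03 in KO arrays and 14.13 and 12.97 in WT arrays. In both, replicate 1 exceeded replicate 2 in each genotype, and the genotypes overlapped. Tff3, a trefoil peptide, had a change of -0.07 and Spdef, a goblet cell transcription factor, of 0.03.

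**Figure D3:**
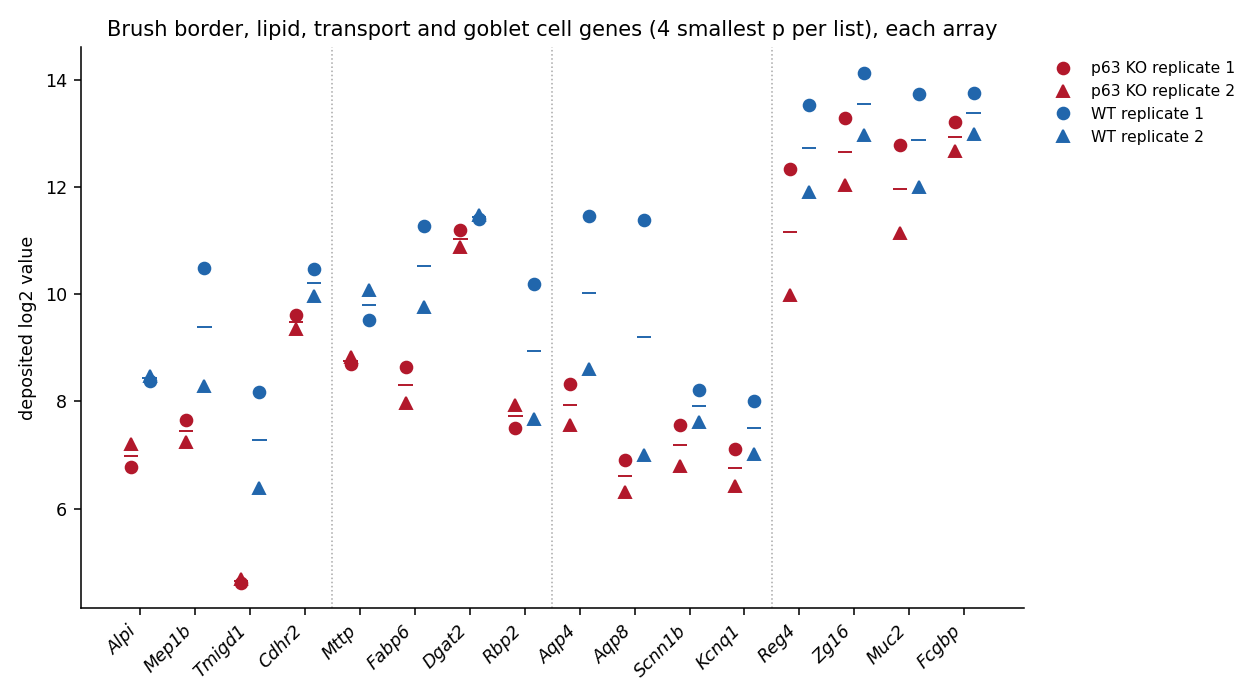
Deposited log2 value (vertical axis) on each large intestine array of the 4 members with the smallest p of each of 4 lists, split by dotted lines: brush border and digestion, lipid uptake, colonocyte transport, and goblet cell; KO is left of WT, circles are replicate 1, triangles replicate 2, short bars the mean. WT replicate 1 stands apart for Aqp8 at 11.39, and Alpi is the called gene among the 16.

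Of the lists of cells outside the epithelium, those of immune cells, mesothelium and endothelium had the lowest medians, each with 0 members called. Of 23 immune cell genes 22 had a change below 0, beside 56.3% of all genes, and 10 were lower at an unadjusted p under 0.05, beside 3.89% of all genes; the median was -0.50. Cd74, the invariant chain of MHC class II, read 8.01 and 7.60 in KO arrays and 9.24 and 8.72 in WT arrays (limma, adjusted p = 0.0966). Cd163, a macrophage scavenger receptor, read 5.06 and 5.38 in KO arrays and 7.10 and 6.37 in WT arrays (limma, adjusted p = 0.112). The summed linear signal of the immune list was 11759 and 7421 in KO arrays, against 16111 and 11111 in WT arrays, and the ranges overlapped. Its median was -0.17 without KO replicate 2 and -0.26 without WT replicate 1. The median was -0.81 without KO replicate 1 and -0.66 without WT replicate 2.

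Of 12 mesothelial genes 8 had both KO arrays below both WT arrays, beside 15.2% of all genes, 5 were lower at an unadjusted p under 0.05, beside 3.89% of all genes, and the median was -0.48. Upk3b, a uroplakin of mesothelium, read 10.49 and 11.02 in KO arrays and 11.53 and 11.25 in WT arrays, and Upk1b 8.41 and 8.46 in KO arrays and 9.05 and 8.92 in WT arrays. The median stayed between -0.67 and -0.33 whichever array was left out. All 19 endothelial genes had a change below 0, beside 56.3% of all genes, and 3 were lower at an unadjusted p under 0.05, beside 3.89%. The median was -0.38. It was 0.039 without KO replicate 2 and -0.87 without KO replicate 1. Lyve1, a lymphatic receptor, read 8.81 and 8.38 in KO arrays and 10.73 and 9.05 in WT arrays, and Flt4, the lymphatic VEGF receptor, 9.06 and 8.17 in KO arrays and 9.18 and 9.30 in WT arrays. The part of these cells in the epithelial results was not tested.

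**Figure D4:**
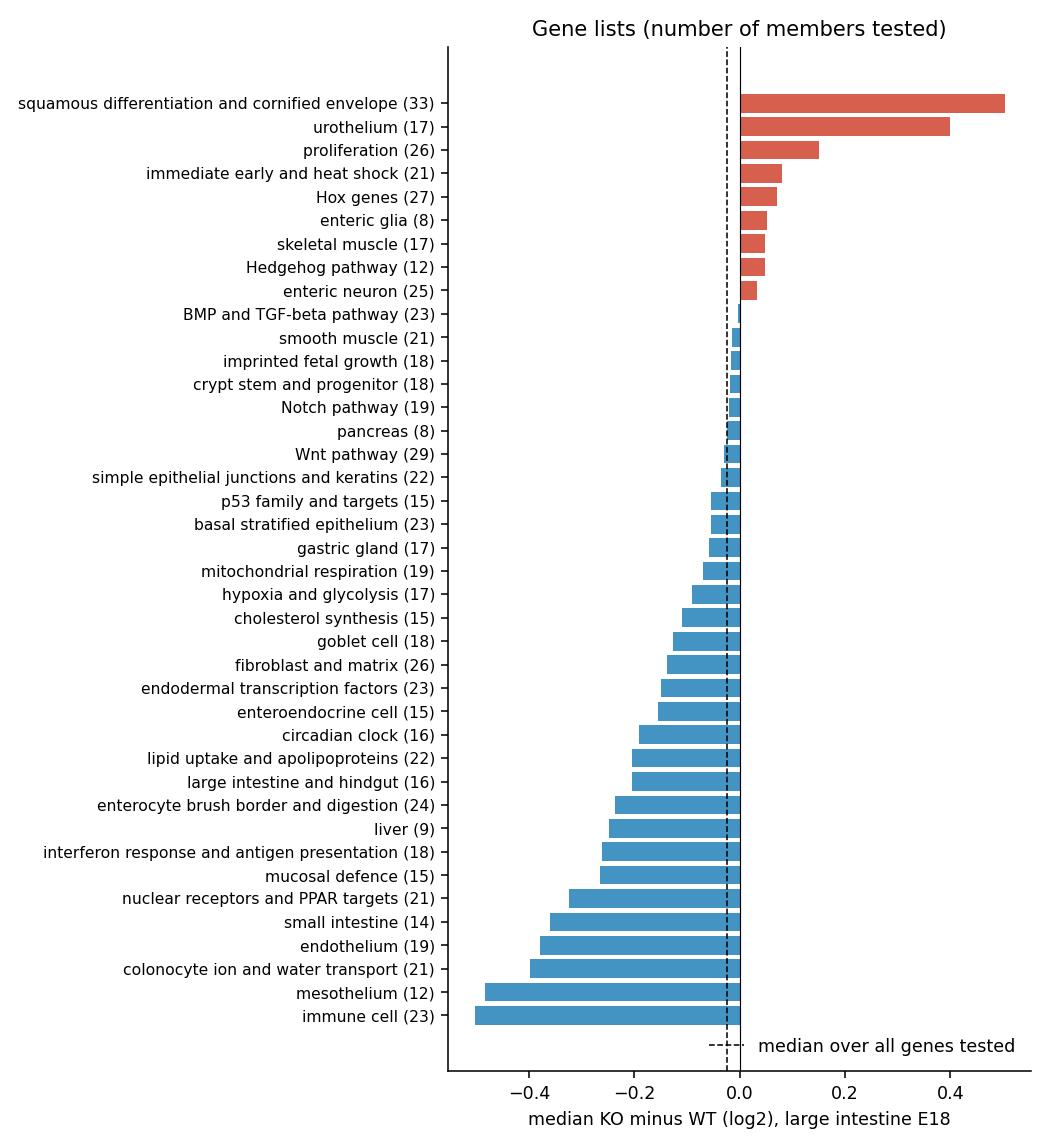
Median KO minus WT change (horizontal axis, log2) in large intestine at E18 of the gene lists with 8 or more members tested; the number tested is beside each name and the dashed line is the median of all genes, -0.02. The squamous list lies highest at 0.50 and the immune list lowest at -0.50.

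The changes were set against those of small intestine and distal stomach, where 0 genes (0%) were called by the same limma test. At an unadjusted p under 0.05 there were 626 genes (4.6%) in small intestine and 528 (3.88%) in distal stomach. None of the 12 genes was called in either: their changes ran from -0.44 to 0.24 in small intestine and from -1.18 to 0.20 in distal stomach. The difference between tissues was called for 3 genes against each, 0.022% of those tested, and they were the same genes, Dsc3, Sprr2d and Lce3f. Both comparisons share the large intestine arrays. Against small intestine 0 of the 3 were called with only the 12 arrays of distal stomach, small intestine and large intestine, or with gut arrays of the same genotype and number as a block, a setting chosen after seeing the data. Against distal stomach Dsc3 and Sprr2d stayed called in both settings and Lce3f in neither.

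Dsc3 read 5.71 and 5.52 in KO small intestine, against 5.65 and 5.62 in WT small intestine, and 7.70 and 7.41 in KO distal stomach, against 7.29 and 7.46 in WT distal stomach. The change in large intestine minus that in small intestine was -2.80 (SE 0.37; limma, adjusted p = 0.00307), and minus that in distal stomach -3.003 (SE 0.37; limma, adjusted p = 6.7e-04). WT large intestine was thus the highest of the 6 groups for Dsc3, and KO large intestine lay near the small intestine. Sprr2d read 5.03 and 5.20 in KO small intestine and 4.98 and 5.12 in WT small intestine, and 5.25 and 5.08 in KO distal stomach and 5.54 and 5.38 in WT distal stomach. The difference was 2.59 (SE 0.36; limma, adjusted p = 0.00307) against small intestine and 2.95 (SE 0.36; limma, adjusted p = 6.7e-04) against distal stomach. Lce3f read 4.60 and 4.95 in KO small intestine and 5.79 and 4.64 in WT small intestine, and 4.37 and 4.31 in KO distal stomach and 6.26 and 4.77 in WT distal stomach. Its differences were 4.98 (SE 0.80; limma, adjusted p = 0.0204) and 5.71 (SE 0.80; limma, adjusted p = 0.00293), and the first lost the call without KO replicate 2 or without WT replicate 1 of large intestine.

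For the other 9 genes the difference between tissues was not called. Hrnr differed by 3.97 from small intestine (SE 0.79; limma, adjusted p = 0.202) and by 3.73 from distal stomach (SE 0.79; limma, adjusted p = 0.208). Slc7a9 and Alpi were brighter in WT small intestine than in WT large intestine: Slc7a9 averaged 14.09 there and Alpi 13.53, against 10.68 and 8.43 in WT large intestine. In small intestine Slc7a9 changed by -0.12 and Alpi by -0.20. In distal stomach they changed by -0.33 and -0.74, neither called, and for Alpi both KO arrays lay below both WT arrays there. The change of Alpi in large intestine minus that in distal stomach was -0.70. Of 14 small intestine marker genes tested in large intestine, 1 (Alpi) was called lower and 0 higher, beside 0.0294% and 0.0588% of all genes. At an unadjusted p under 0.05, 5 were lower and 0 higher, beside 3.89% and 0.992%. Their median change was -0.36, and their summed linear signal was 3803 and 4584 in KO arrays, against 9307 and 6892 in WT arrays. The part of small intestine tissue in these samples was not tested. Iyd was brightest, among the 4 gut tissues, in distal stomach, at 11.84 and 11.65 in KO arrays and 12.03 and 11.88 in WT arrays.

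Proximal stomach, which in the mouse includes the squamous forestomach, set the other end of the range. All 8 genes that rose in KO large intestine fell in KO proximal stomach (limma, called for all 8), where 32.7% of genes were called and 14.6% lower. Of the 8, 4 (Hrnr, Sprr1b, Sprr2d and Sprr2h) passed the filter on low values only through the WT proximal stomach arrays, so their fall there was fixed by that filter and is no support. Hrnr read 4.48 and 3.77 in KO proximal stomach, against 13.64 and 13.49 in WT proximal stomach. Lce3f read 4.35 and 5.45 in KO proximal stomach, against 14.93 and 15.05 in WT proximal stomach. KO large intestine, at 10.61 or less for Lce3f, therefore lay between KO and WT proximal stomach for this gene. By group means the same held for Hrnr, Lor, Sprr2d, Sprr2h and Sprr1b, but not for Asprv1 and Krtdap. Asprv1 averaged 8.49 in KO large intestine and 12.74 in KO proximal stomach, and Krtdap 9.63 and 10.32. Dsc3 fell in both tissues, with a change of -5.51 in proximal stomach (SE 0.26; limma, adjusted p = 6.3e-13) beside -2.82 in large intestine.

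**Figure D5:**
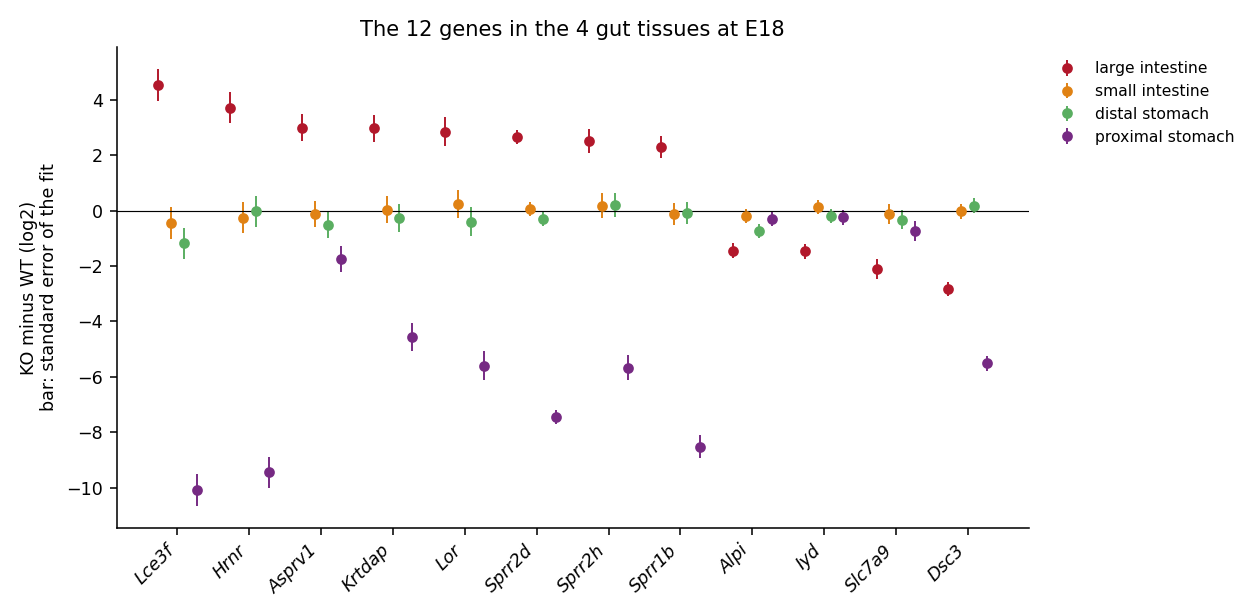
KO minus WT change (vertical axis, log2) of the 12 called genes in large intestine, small intestine, distal stomach and proximal stomach at E18, with the standard error of the fit as a bar. The 8 genes that rose in large intestine lie near 0 in small intestine and below 0 in proximal stomach, and Dsc3 is at -2.82 in large intestine and -5.51 in proximal stomach.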

How the data were processed

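Whole-tissue RNA was hybridised to Affymetrix 3′ expression arrays for mouse. The authors deposited log2 values for 45101 probe sets; the submitters' processing notes name Affymetrix Expression Console and Partek, with no versions, and the normalization is not given in the sources used here. A probe set was kept if above its array's median on at least 2 of 28 arrays (28866 kept), and the brightest probe set with 1 symbol stood for a gene (13613 genes). The filter uses all groups, so genes low in large intestine could pass through other tissues. limma 3.58.1 (R 4.3.3) fitted 14 group means over all 28 arrays (residual degrees of freedom 14) with a variance trend, Benjamini-Hochberg adjustment and a threshold of 0.05. The fit was tested on simulated data, in which a gene had the same spread in every group. That test therefore cannot check calls of genes whose spread was wider in large intestine. Named genes were Trp63, called genes filled to 10 in each direction by unadjusted p, and the members of each list with the smallest p. Further members lie outside this rule, and only some are marked in the text. Unmarked ones include Cdx2, Muc2, Hoxd13, Slc26a3, Sult1c2, Krt5, Krt14, Vil1, Ezr, Tff3 and Spdef. Members and the 46 lists were chosen with earlier results of these data known. Motifs were chosen with the promoters in view. Motif searches and tables used Python 3.11.15; 10 of the 12 called genes had 1 probe set.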

Additional observations from a re-analysis of the deposited data

Results flagged for a closer look

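The test of the difference between tissues singled out 3 genes. For Dsc3, the KO minus WT change of large intestine minus that of small intestine was -2.80, and minus that of distal stomach -3.003. For Sprr2d the same differences were 2.59 and 2.95, and for Lce3f 4.98 and 5.71. All are on the log2 scale, from the limma fit, with adjusted p from 6.7e-04 to 0.0204. Against small intestine 0 of the 3 were called with only the 12 arrays of distal stomach, small intestine and large intestine, or with gut arrays of the same genotype and number as a block; against distal stomach Lce3f lost the call in both.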

How the results depend on the processing

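The 12 genes called in large intestine became 0 with only the 4 large intestine arrays in the fit, 2 (Dsc3 and Sprr2d) with the 12 arrays of distal stomach, small intestine and large intestine, and 19 with the replicate block. Leaving out 1 large intestine array gave 4 to 121: 58 without KO replicate 1, 12 without KO replicate 2, 4 without WT replicate 1 and 121 without WT replicate 2. Medians, quantiles, filters, variance trend, array weights, an actin 3′ to 5′ covariate, other treatments of probe sets and leaving out bladder E19 gave 9 to 17. For the difference from small intestine, the 3 calls became 0 with the 12 arrays, 5 with the replicate block, 2 to 24 without 1 array, and 0 with gut arrays of the same genotype and number as a block, a setting chosen after seeing the data. For the difference from distal stomach they became 3 to 24 without 1 array. The 6 squamous genes called higher became 0 with 4 arrays, 1 with 12 and 2 to 10 without 1 array. Replicate numbers were not taken to pair samples: same-numbered arrays deviated together with r = 0.28 in large intestine and -0.13 to 0.25 elsewhere. The block kept 11 of the 12 calls and lost Alpi; Reg4 and Saa1 were among those it added, at -1.56 and -2.63. None of the 12 called genes changed sign under these alternatives; over the named genes, 44 values lost a call and 27 gained one. For 7 genes that were not called the change turned sign when 1 large intestine array was left out: over these settings Sc5d ran from -0.64 to 0.14, S100b from -0.89 to 0.039, Car2 from -0.74 to 0.080, Thbs4 from -1.06 to 0.17, Fga from -2.42 to 0.86, Tnni2 from -0.13 to 0.53 and Synm from -1.02 to 0.30. Of 720 list medians, 38 moved by more than the spread between arrays. The 2 arrays of each group, and WT signal under the array median for the genes that rose, limit the precision; the cause of these shifts was not tested.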

Other observations

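Cell cycle genes had 0 of 26 members called and 0 at an unadjusted p under 0.05, but 25 of the 26 changes lay above 0, beside 43.7% of all genes, with a median of 0.15, and both KO arrays were above both WT arrays for 13, where 11.8% of all genes did so. Mcm7, a subunit of the replicative helicase, read 12.92 and 12.96 in KO arrays and 12.56 and 12.82 in WT arrays. Cdk1, the mitotic kinase, read 12.44 and 12.58 in KO arrays and 12.16 and 12.42 in WT arrays. The median of the list was 0.05 without WT replicate 1 and 0.27 without WT replicate 2. In small intestine and distal stomach the list had median changes of 0.26 and 0.23, so a shift this way was not particular to large intestine.

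Signalling and patterning lists had 0 members called. Their median changes were -0.03 for the Wnt list, -0.02 for Notch, 0.05 for Hedgehog and 0.07 for Hox genes. Axin2, a target and brake of Wnt signalling, read 9.99 and 9.79 in KO arrays and 10.26 and 10.40 in WT arrays. Shh, the epithelial Hedgehog ligand, read 10.97 and 11.33 in KO arrays and 9.83 and 11.04 in WT arrays. Among smooth muscle genes the median was -0.02 over 21, with Cald1, which encodes caldesmon, at 13.22 and 13.36 in KO arrays and 13.22 and 13.01 in WT arrays. Enteric neuron genes had a median of 0.03 over 25, and Tac1, a tachykinin precursor, read 9.12 and 9.33 in KO arrays and 9.85 and 9.58 in WT arrays.

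Of 17 urothelial genes 0 were called and 13 had a change above 0, beside 43.7% of all genes; 3 were higher and 2 lower at an unadjusted p under 0.05, beside 0.992% and 3.89% of all genes. Grhl3, an epithelial barrier transcription factor, read 8.89 and 8.43 in KO arrays and 6.50 and 7.71 in WT arrays, a change of 1.55 (limma, adjusted p = 0.127). Saa1, an acute-phase protein of the mucosal defence list, read 10.57 and 7.99 in KO arrays and 13.72 and 10.09 in WT arrays, so the genotypes overlapped.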
